A study of Mus musculus with 6 samples.

Results

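The cytosolic ribosomal protein genes were examined in infarcted and sham-operated mouse hearts. They were taken by symbol: Rpl or Rps with a number and at most 1 of the letters a, l, x or y, the stalk genes Rplp0, Rplp1 and Rplp2, and Rpsa. Of 83 symbols that matched, 2 are pseudogenes in the RefSeq gene table (Rps4l and Rpl6l) and were left out. The other 81 genes, 50 of the large and 31 of the small subunit, were all among the 17441 genes with a value in any of the 6 libraries. The tissue was heart below the site where the left coronary artery is ligated, taken 3 days after surgery from male mice of 12 weeks on a C57BL/6 background. The 3 groups were wild-type mice with a sham operation (WT sham), wild-type mice with myocardial infarction (WT MI) and mice labelled as Card9 knockouts with infarction (Card9 KO MI, here KO-labelled MI), with 2 libraries each. There was no sham group of Card9 KO mice. Nothing in the labels says whether a library was 1 heart or a pool, so p-values measure the spread between these libraries.

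The ribosome of the cytosol is built from a large and a small subunit, each an rRNA scaffold clad in proteins that are encoded one by one across the genome. Their genes are among the most actively read of any cell, and cells that grow or divide need many new ribosomes. Most ribosomal protein mRNAs start with a C followed by a run of pyrimidines, the 5' terminal oligopyrimidine tract, through which mTOR signalling and LARP1 set how well they are translated. In striated muscle a second form of one large-subunit protein, Rpl3l, stands in for the general Rpl3.

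RefSeq promoter windows of the mouse assembly GRCm38.p6 were matched to 61 of the 81 members. At the annotated start, 14 of the 61 (23.0%) carried a C followed by at least 4 pyrimidines on the coding strand, against 3.01% of 27025 genes with a window. A C followed by at least 7 pyrimidines lay within 30 bases of the start in 39 of the 61 (63.9%), against 22.1% of all genes. The windows below run from 10 bases before the start to 20 bases from it. The first set shows members with the tract at the start, in capitals, and the second shows members that moved most or least and have no such tract there.
Rplp2 (chr7:141447641-141447670, plus strand): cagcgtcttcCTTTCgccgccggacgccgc
Rps6 (chr4:86857348-86857377, minus strand): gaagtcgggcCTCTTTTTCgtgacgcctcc
Rpl38 (chr11:114668570-114668599, plus strand): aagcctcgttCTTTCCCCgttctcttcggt
Rps27 (chr3:90213629-90213658, minus strand): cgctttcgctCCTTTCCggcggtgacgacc
Rpl35 (chr2:39005112-39005141, minus strand): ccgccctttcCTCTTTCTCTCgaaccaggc
Rps12 (chr10:23787190-23787219, minus strand): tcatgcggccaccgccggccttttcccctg
Rpl12 (chr2:32961702-32961731, plus strand): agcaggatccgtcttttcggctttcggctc
Rpl39 (chrX:37085203-37085232, minus strand): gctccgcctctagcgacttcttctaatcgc
Rps27l (chr9:66946076-66946105, plus strand): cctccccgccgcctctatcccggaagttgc
Rpl3l (chr17:24727816-24727845, plus strand): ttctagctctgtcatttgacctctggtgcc
The ETS-type motif CCGGAAG, searched on both strands of the windows from 250 bases before to 50 after the start, was in 25 of the 61 members (41.0%) and in 9.93% of all genes. The YY1-type motif AAGATGGC was in 5 of the 61 (8.20%) against 3.19%, and TATAAA in 7 (11.5%) against 15.7%.

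Of the 81 members, 78 were listed in every library and passed the filter of at least 1 FPKM (fragments relative to gene length and to all fragments of a library) in at least 2 libraries, as did 13120 genes in all. Rpl10l, Rpl32l and Rpl39l did not: their highest FPKM in any library was 0.29, 0.55 and 0.63. Rpl10l and Rpl39l are known as copies used in the male germ line. Levels are per length, but reads of some members may be shared with near-identical copies. Comparison of levels between genes is therefore approximate. In every library 67 of the members were over 100 FPKM. Rpl41, which encodes the shortest ribosomal protein, had the highest mean, from 833 FPKM in a WT sham library to 2072 in a KO-labelled MI library. Rps26, Rps15, Rps2 and Rplp1 followed, with means of 990.3, 967, 787 and 774 FPKM over the 6 libraries. The order of the members by level was much alike in all libraries, with Spearman's rho between 0.91 and 0.99 over the members, a description of libraries that share annotation and gene lengths.

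Together the members summed to 19963 and 19268 FPKM in the WT sham libraries, 32532 and 32417 in WT MI, and 37099 and 33418 in KO-labelled MI. Both infarct groups lay above both sham libraries, and the sham and WT MI pairs were each closer together than the last pair. This was 4.09% and 4.01% of all FPKM in WT sham, 6.85% and 6.80% after WT MI, and 7.85% and 7.12% in KO-labelled MI. Among the 100 most abundant genes stood 2 and 3 members in WT sham, 10 and 11 after WT MI, and 17 and 11 in KO-labelled MI. The ratio of large-subunit to small-subunit FPKM stayed between 1.44 and 1.499 in all 6 libraries.

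Facts of the whole series bear on these values. The estimated depth was 3012000 to 4304000 fragments per library. The 10 most abundant genes took 16.1% and 16.4% of all FPKM in WT sham and 8.99% to 10.6% in the infarct libraries, and since FPKM is relative to the whole library, a fall of a few abundant genes lifts the others. Card9, an adapter of innate immune receptors on chromosome 2 (mm9 26207696 to 26216438), was at 0.99 and 1.03 FPKM in WT sham, 3.39 and 5.08 after WT MI, and 9.85 and 6.94 in KO-labelled MI. It was thus not lower in the libraries labelled as knockouts (log2 fold change against WT MI 0.85, SE 0.23, limma adjusted p = 0.112). The group is therefore called by its label, and each direction against WT MI rests on that label.

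The comparison of WT MI with WT sham asks what infarction did to these genes in the tissue below the ligature. Nearly all of them rose together. By limma on log2(FPKM + 1) with Benjamini-Hochberg adjustment over 13120 genes, 75 of the 78 tested members were higher in WT MI at an adjusted p below 0.05, where 27.7% of all genes tested were called higher. One member, Rpl3l, was lower, where 9.39% of all genes were called lower. Rps15a and Rps27l did not pass the test. A screen was also modelled on the study's NOIseq criteria, a ratio of at least 2 with a diverge probability of at least 0.8. It took 11 members as higher and Rpl3l as lower, where it took 6.06% and 0.906% of all genes listed in either group. The median log2 fold change was 0.72 over the members and 0.19 over all genes tested, and the median ratio of the group means was 1.66. In 77 members both WT MI libraries lay above both WT sham libraries, which 48.3% of all genes tested did. Both subunits moved alike, with a median log2 fold change of 0.73 over 47 large-subunit and 0.72 over 31 small-subunit members. In bulk tissue, more cells of a type rich in ribosomal protein mRNA and more of this mRNA per cell cannot be told apart.

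**Figure D1:**
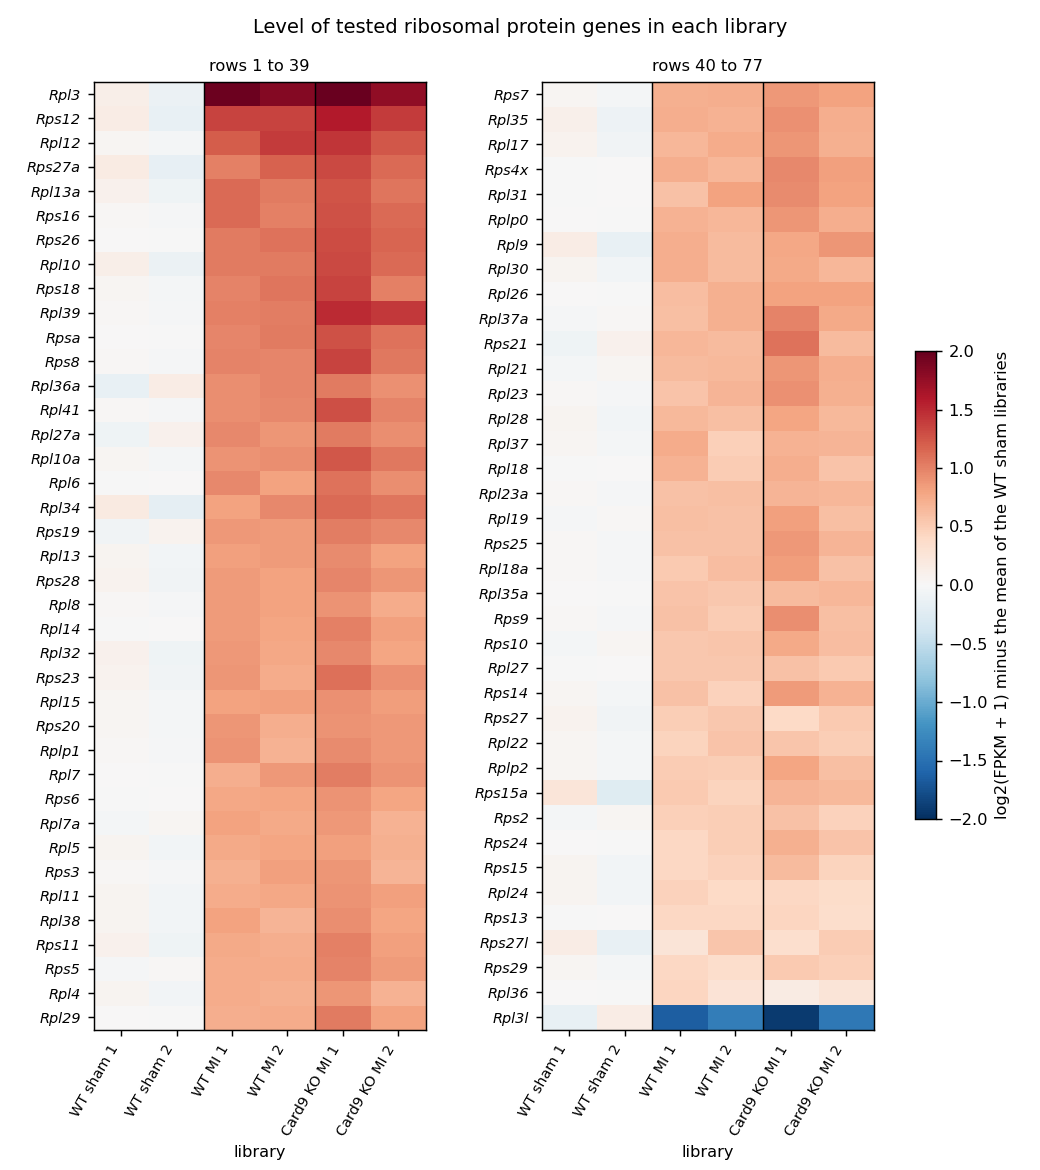
Level of 77 of the 78 tested members (rows, ordered by fold change in WT MI) in each of the 6 libraries (columns), as log2(FPKM + 1) minus the mean of the WT sham libraries. Rpl3 at the top and Rpl3l at the bottom stand apart, and nearly every other row is red in all infarct libraries.

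The stalk of the large subunit recruits the translation factors that use GTP. Its 3 genes were called higher in WT MI, as were 27.7% of all genes tested. Rplp0, its base, was at 461 and 460 FPKM in WT sham, 749 and 733 after WT MI, and 851 and 762 in KO-labelled MI. Rplp1 was at 511 and 493 FPKM in WT sham against 939 and 814 in WT MI, and Rplp2 at 336 and 320 FPKM and then 467 and 463. In each of them both WT MI libraries lay above both WT sham libraries, as in 48.3% of all genes tested. The log2 fold changes in WT MI were 0.69 (SE 0.091) for Rplp0, 0.80 (SE 0.10) for Rplp1 and 0.50 (SE 0.095) for Rplp2. The call of Rplp2 was lost with upper-quartile scaling, which divides each library by its upper quartile (log2 fold change 0.25, limma adjusted p = 0.0663). Rpl12, which binds at the foot of this stalk, had a larger fold change. It was at 208 and 195 FPKM in WT sham, 469 and 534 after WT MI, and 545 and 477 in KO-labelled MI. Its log2 fold change in WT MI was 1.31 (SE 0.11, limma adjusted p = 0.000141).

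Rpl5 and Rpl11 carry the 5S rRNA into the large subunit and, when not in ribosomes, bind the p53 regulator Mdm2. Rpl5 was at 119 and 110 FPKM in WT sham against 195 and 198 in WT MI, and Rpl11 at 355 and 328 and then 570 and 583. Their log2 fold changes were close, 0.78 (SE 0.088) and 0.75 (SE 0.088). Trp53 itself, the p53 gene, was at 18.5 and 19.2 FPKM in WT sham against 41.4 and 39.98 in WT MI (log2 fold change 1.07, SE 0.10, limma adjusted p = 0.000277).

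Several large-subunit members have roles of their own. Rpl10, a late-joining protein next to the catalytic centre, was at 245 and 210 FPKM in WT sham against 465 in both WT MI libraries (log2 fold change 1.03, SE 0.11). Rpl10a, known to differ in amount between ribosomes, rose by a log2 fold change of 0.91 (SE 0.096) and Rpl38, needed for the translation of Hox mRNAs in the embryo, by 0.75 (SE 0.098). Rpl13a, a member of the interferon-regulated GAIT complex when released from the ribosome, was at 184 and 162 FPKM in WT sham against 382 and 357 in WT MI (log2 fold change 1.09, SE 0.11). Rpl39, a small protein lining the tunnel through which the new protein leaves, was at 46.0 and 44.4 FPKM in WT sham, 92.3 and 92.8 after WT MI, and 129 and 122 in KO-labelled MI. For Rpl39 the WT MI pair lay above the WT sham pair, as for 48.3% of all genes tested, and the KO-labelled pair above the WT MI pair, as for 30.8%. Its log2 fold change in WT MI was 1.02 (SE 0.087). Rpl41 rose by 0.94 (SE 0.11), Rpl13 by 0.83 (SE 0.092), Rpl7 by 0.80 (SE 0.093), Rpl7a by 0.78 (SE 0.092) and Rpl22, an RNA-binding protein known from T cell development, by 0.51 (SE 0.10), all on the log2 scale. The call of Rpl22 was lost with upper-quartile scaling (0.26, limma adjusted p = 0.0733).

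In the small subunit Rps12, of the beak of its head, had the largest fold change. It was at 233 and 192 FPKM in WT sham, 539 and 541 after WT MI, and 635 and 556 in KO-labelled MI (log2 fold change in WT MI 1.35, SE 0.12, limma adjusted p = 0.000178). Rps27a, made as a fusion with ubiquitin and so also a source of it, was at 85.1 and 68.2 FPKM in WT sham against 155 and 173 in WT MI (log2 fold change 1.09, SE 0.13). Rpsa, also known as a laminin receptor precursor, was at 243 FPKM in both WT sham libraries and at 477 and 498 in WT MI (log2 fold change 1.00, SE 0.094). In both genes the WT MI libraries lay above both WT sham libraries, again as in 48.3% of all genes tested.

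Rps6, the substrate of the S6 kinases, was at 249 and 251 FPKM in WT sham against 428 and 432 in WT MI (log2 fold change 0.78, SE 0.083). Rps19, the gene most often mutated in Diamond-Blackfan anaemia, was at 90.1 and 100.4 FPKM in WT sham against 173 and 172 in WT MI (log2 fold change 0.85, SE 0.091). Rps26, at the channel by which mRNA leaves, rose by 1.06 (SE 0.089) on the log2 scale, Rps3, at the entry of the channel, by 0.76 (SE 0.10), Rps4x by 0.70 (SE 0.089) and Rps25, used by viral internal ribosome entry sites, by 0.59 (SE 0.094). Rps14, lost in the 5q- syndrome, rose by 0.52 (SE 0.096), Rps27 by 0.51 (SE 0.092), Rps2 by 0.48 (SE 0.089) and Rps15 by 0.44 (SE 0.10). With upper-quartile scaling the calls of Rps14, Rps27, Rps2 and Rps15 were lost, at log2 fold changes of 0.27, 0.26, 0.23 and 0.19 and limma adjusted p of 0.056, 0.0699, 0.0768 and 0.17.

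The members that moved least also stood in both subunits. Rpl36 was at 231 and 230 FPKM in WT sham against 311 and 279 in WT MI. Its log2 fold change was 0.35 (SE 0.092, limma adjusted p = 0.0193), and that of Rps29 was 0.38 (SE 0.084, limma adjusted p = 0.0103). These calls rest on the scaling: with upper-quartile scaling the log2 fold changes were 0.10 and 0.13, with limma adjusted p of 0.435 and 0.27. Rps27l, a p53-induced relative of Rps27, was at 31.9 and 25.7 FPKM in WT sham, 34.6 and 42.6 after WT MI, and 36.3 and 41.1 in KO-labelled MI (log2 fold change in WT MI 0.41, SE 0.15, limma adjusted p = 0.0648). It was 7.41% and 6.58% of the sum of Rps27 and Rps27l in WT sham and 6.06% to 7.14% in the infarct libraries.

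Rpl3l, the form of striated muscle, went the other way from every other tested member. Rpl3l, on chromosome 17 (mm9 24864774 to 24873094, plus strand), was at 169 and 208 FPKM in WT sham, 59.0 and 71.4 after WT MI, and 49.0 and 69.3 in KO-labelled MI. Rpl3, the general form, on chromosome 15 (mm9 79908211 to 79913836, minus strand), was at 89.3 and 75.8 FPKM in WT sham, 322 and 296 after WT MI, and 325 and 284 in KO-labelled MI. The sham libraries thus held more Rpl3l than Rpl3, and all infarct libraries held more Rpl3 than Rpl3l. The log2 fold change of Rpl3l in WT MI was -1.51 (SE 0.18, limma adjusted p = 0.000678) and that of Rpl3 was 1.90 (SE 0.12, limma adjusted p = 4.45e-05), the lowest and the highest of the 78 members.

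Rpl3l was 65.4% and 73.3% of the summed FPKM of Rpl3 and Rpl3l in WT sham, 15.5% and 19.4% after WT MI, and 13.1% and 19.6% in KO-labelled MI. The sum of both was 258 and 284 FPKM in WT sham, 381 and 368 after WT MI, and 374 and 354 in KO-labelled MI. The ratio of the group means of this sum is thus smaller than that of Rpl3 alone. Elongation factor 1A, which brings aminoacyl-tRNA to the ribosome, has a similar pair of forms, Eef1a2 of muscle and neurons and the general Eef1a1. Eef1a2 was 63.4% and 64.7% of their sum in WT sham, 29.4% and 27.5% after WT MI, and 16.2% and 22.1% in KO-labelled MI. Its log2 fold change in WT MI was -0.46 (SE 0.10, limma adjusted p = 0.00989) and that of Eef1a1 was 1.70 (SE 0.12, limma adjusted p = 7.34e-05). The call of Eef1a2 was lost without any 1 of the WT sham or WT MI libraries, at limma adjusted p of 0.0503 to 0.0784.

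**Figure D2:**
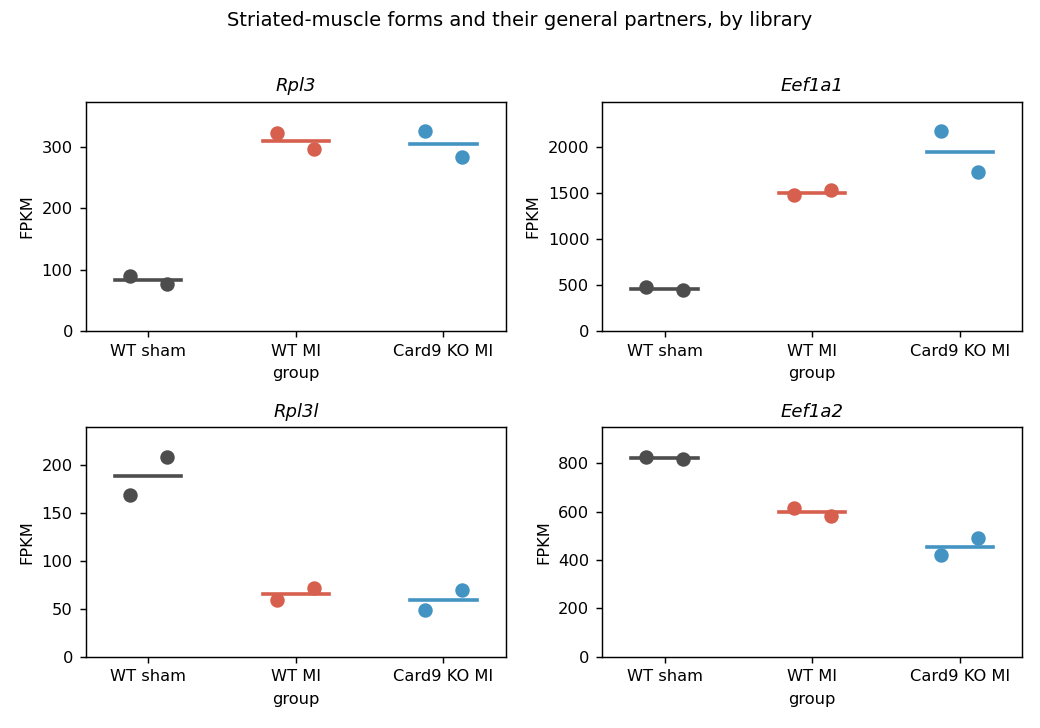
FPKM of Rpl3, Rpl3l, Eef1a1 and Eef1a2 in each library (points) with the mean of each group (bars, n = 2 libraries). The muscle forms Rpl3l and Eef1a2 are highest in WT sham, and the general forms Rpl3 and Eef1a1 are highest in the infarct libraries.

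Markers of several cell types also changed. Counts of markers that rose or fell are limma calls, to be read against all genes tested in WT MI. Of these, 27.7% were called higher and 9.39% lower. The summed FPKM of 14 cardiomyocyte markers was 67566 and 68713 in WT sham, 38758 and 40481 after WT MI, and 33550 and 38361 in KO-labelled MI, and 10 of the 14 fell and 2 rose in WT MI. The sum of 14 macrophage markers was 430 and 367 FPKM in WT sham, 1510 and 1922 after WT MI, and 3069 and 2220 in KO-labelled MI, with 14 of 14 rising in WT MI. That of 10 fibroblast markers was 527 and 501, then 1510 and 2038, and then 3256 and 3118, with 8 of 10 rising. Of 18 cell cycle genes 17 rose, and of 8 tested neutrophil markers 8 rose. Of the other lists, 4 of 5 tested erythroid markers rose in WT MI, 1 of 5 T and B cell markers, 0 of 2 adipocyte markers, 2 of 10 endothelial markers with 1 falling, and 4 of 8 smooth muscle and pericyte markers with 3 falling. The part of cell makeup in the change of the ribosomal protein genes was not tested.

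Because FPKM is relative, the rise was also measured against the rest of each library in other ways. With upper-quartile scaling 61 of the 78 members were called higher in WT MI, with quantile normalization 72, and with the 100 most abundant genes left out of the scaling 71. The median log2 fold change of the members was then 0.48, 0.64 and 0.57, and that of all genes -0.03, -0.07 and 0.06. The members thus lay above all genes under each scaling, while the calls over all 13120 genes tested moved from 3637 higher and 1232 lower. They became 2453 and 2351 with upper-quartile scaling and 2287 and 2414 with quantile normalization. Without the 100 most abundant genes in the scaling they were 2869 and 1830. Rpl3l was called lower under each of these scalings. With all values set relative to the median of the members in each library, Rpl3 (1.10), Rps12 (0.55) and Rpl12 (0.51) were still called higher on the log2 scale, where 7.24% of all genes were called higher. On this scale 8 members were called lower, where 59.2% of all genes were, among them Rpl3l (-2.32), Rpl36 (-0.45), Rps29 (-0.42), Rps13 (-0.39), Rpl24 (-0.37), Rps15 (-0.36) and Rps24 (-0.35). Rpl24 is the gene of the belly spot and tail mouse, and Rps24 is a gene of Diamond-Blackfan anaemia. Pearson's r with the log2 length of the longest coding transcript was -0.05 and Spearman's rho 0.01 over 77 members, and with the level in WT sham -0.05 and -0.18 over 78, as a description of genes that share libraries. The median log2 fold change in WT MI was 0.65 for 13 tested members with the tract exactly at the annotated start. It was 0.73 for 45 with a window but no tract at that base. A longer run lay within 30 bases of the start in 39 of the 61 members with a window. The split therefore does not separate mRNAs with a tract from those without.

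The KO-labelled MI libraries were compared with the same WT sham libraries, so this contrast shares its controls with the one above. By limma 76 of the 78 members were higher at an adjusted p below 0.05, where 34.8% of all genes were, and 1, Rpl3l, was lower, where 14.3% were. The screen took 18 members as higher and Rpl3l as lower, where it took 8.56% and 1.94% of all genes. The median log2 fold change was 0.83 over the members and 0.24 over all genes, and the median ratio of the group means was 1.78. In 77 members both KO-labelled MI libraries lay above both WT sham libraries, as did 51.6% of all genes. Rpl36 was at 257 and 275 FPKM against 231 and 230 in WT sham and did not pass (log2 fold change 0.21, SE 0.092, limma adjusted p = 0.0988). Rpl3 (1.87), Rps12 (1.49), Rpl39 (1.45), Rpl12 (1.34) and Rps26 (1.23) had the highest log2 fold changes, and Rpl3l (-1.67), Rpl36, Rpl24 (0.39), Rps13 (0.39) and Rps27l (0.42) the lowest. Relative to the median of the members, 4 were called higher, Rpl3, Rps12, Rpl39 and Rpl12, where 9.01% of all genes were, and 12 lower, where 62.9% were.

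Between the infarct groups, which asks whether the group labelled Card9 KO differed from WT after infarction, no member passed the test. By limma 0 of 78 were called in either direction, 3 had an unadjusted p below 0.05, and over all genes 0.816% were called higher and 0.587% lower. The screen modelled on that of the study also took 0, where it took 0.728% of all genes as higher and 0.332% as lower. Relative to the median of the members 0 were called, where 0.457% of all genes were called higher and 0.739% lower. Over the members the median log2 fold change was 0.11 and over all genes 0.04, with 70 of the 78 above 0, and no member reached a ratio of 1.5. Both KO-labelled MI libraries lay above both WT MI libraries in 41 members, where 30.8% of all genes did, and below in 1, where 21.9% did. The first of these libraries held most of this: it was above the second in 72 of 78 members, and without it the median log2 fold change was 0.06. Without the second it was 0.17. The members' percentage of all FPKM in the second, 7.12%, was nearer to the WT MI libraries than to the first. Cell markers differed between the same groups: by limma 4 of 10 fibroblast and 2 of 8 smooth muscle and pericyte markers were called higher in KO-labelled MI, and the median log2 fold change was 0.65 over the fibroblast, 0.61 over the smooth muscle and pericyte, 0.66 over 14 macrophage and -0.72 over 8 tested neutrophil markers. Their part in the difference of the members was not tested.

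Rpl39 had the largest difference (log2 fold change 0.43, 95% interval 0.23 to 0.64, limma adjusted p = 0.0593), with 129 and 122 FPKM against 92.3 and 92.8 in WT MI. It passed the threshold with 5 FPKM added before the logarithm, with a mean of at least 5 FPKM as the filter and with quantile normalization, at limma adjusted p of 0.0495, 0.046 and 0.0444. Rps14 (0.25), Rpl10a (0.23), Rpl34 (0.22) and Rpl37a (0.22) followed. At the other end were Rpl3l (-0.15, 95% interval -0.58 to 0.27), Rpl36 (-0.15), Rps27 (-0.05), Rpl24 (-0.04) and Rpl3 (-0.02, 95% interval -0.29 to 0.24).

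**Figure D3:**
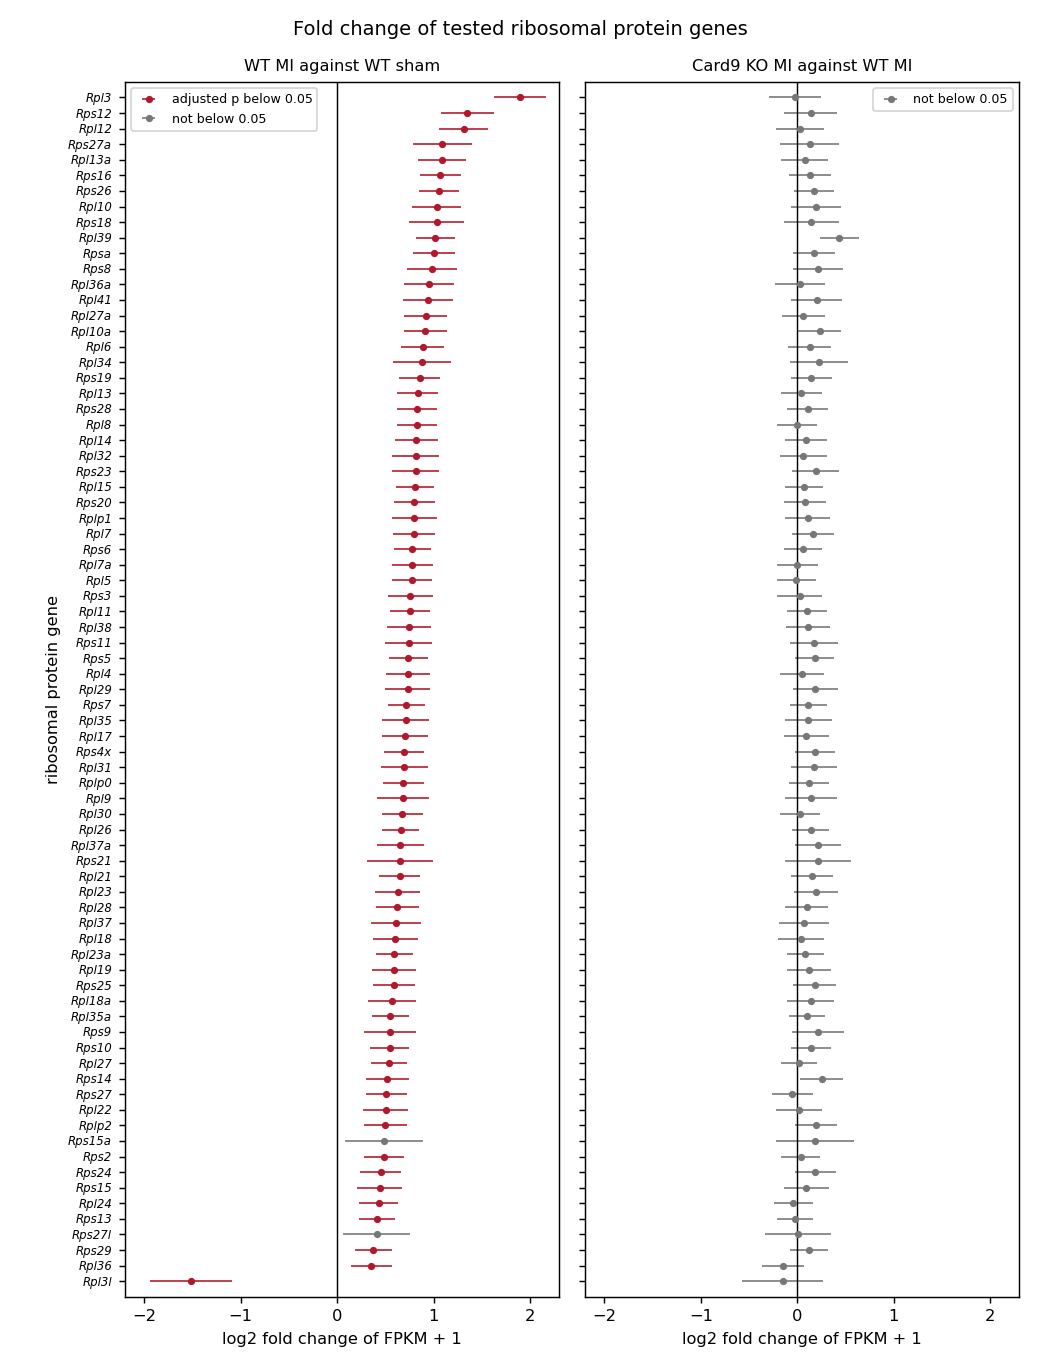
Log2 fold change of FPKM + 1 with 95% intervals from limma for 77 of the 78 tested members, in WT MI against WT sham (left) and in KO-labelled MI against WT MI (right). Red points passed an adjusted p of 0.05 and grey points did not. On the left every red point but that of Rpl3l lies right of 0, and on the right no point is red.

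Reads of some members may be shared with near-identical copies. The RefSeq table holds 321 entries named as pseudogenes of members, of which 6 were listed. Rps15a was listed at only 8.53 and 5.87 FPKM in WT sham, 10.7 and 10.01 after WT MI, and 11.98 and 11.7 in KO-labelled MI, the lowest of the tested members. Its copies Rps15a-ps4 and Rps15a-ps6 were at 31.4 to 91.4 FPKM, and the sum of the 3 was 82.7 and 71.4 FPKM in WT sham and 138 to 181 in the infarct libraries. Rps15a itself gave a log2 fold change of 0.49 (SE 0.17, limma adjusted p = 0.0616) in WT MI. Rpl31 and Rpl37 were looked at after their copies were seen. Rpl31-ps12 was at 113 to 299 FPKM, above Rpl31 in every library, and Rpl37rt at 38.0 to 85.2 FPKM. The levels of Rps15a, Rpl31 and Rpl37 are therefore uncertain. Rps4l, left out as a pseudogene, was at 19.9 and 23.3 FPKM in WT sham and 28.9 to 43.9 in the infarct libraries.

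Of 7 tested ribosomal proteins and close relatives whose symbols fall outside the naming rule, 6 rose in WT MI. Fau, the ubiquitin-like fusion that yields a small-subunit protein, had a log2 fold change of 0.92 (SE 0.099), Rack1, a signalling scaffold on the small subunit, 0.92 (SE 0.091), Rpl36al 1.06 (SE 0.098), Rpl22l1 0.82 (SE 0.19), Rps3a1 0.68 (SE 0.093) and Rpl7l1, a relative of Rpl7, 0.47 (SE 0.14). The call of Rpl7l1 was lost with upper-quartile scaling and quantile normalization (limma adjusted p = 0.22 and 0.187), and that of Rpl22l1 with quantile normalization (limma adjusted p = 0.0501) and without the second WT sham or the second WT MI library. Rpl22l1 was 22.4% and 21.0% of its sum with Rpl22 in WT sham, 24.5% and 28.5% after WT MI, and 37.5% and 31.8% in KO-labelled MI.

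The genes that build ribosomes rose in part. Over all genes tested 27.7% were called higher and 9.39% lower in WT MI, and the median log2 fold change over them was 0.19. Of 59 biogenesis factors, 36 rose in WT MI and 0 fell by limma (median log2 fold change 0.50), led by Nhp2 (1.78), a protein of H/ACA snoRNPs, Nop58 (1.36), of C/D snoRNPs, and Utp18 (1.32), of the small-subunit processome. Of 14 snoRNA host genes, 6 rose and 0 fell (median 0.69), led by Snhg5 (1.66), Snhg6 (1.21) and Snhg18 (1.01). The RNA polymerase I machinery, which makes rRNA, had 6 of 16 higher and 1 lower (median 0.33), not far from that share of all genes, with Polr2h (0.91), a subunit shared by the polymerases, Taf1d (0.77) and Tcof1 (0.64) the largest called. Polr2h and Taf1d lost the call under every other scaling tried except the one that leaves out the members.

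Factors that work on the ribosome, with some genes of like symbols, were in 2 lists. Both are to be read against the same 27.7% of all genes called higher and 9.39% called lower. Of 37 initiation factors, 16 rose and 1 fell (median 0.30), with Pabpc1 (1.76), the poly(A)-binding protein, Eif4a1 (1.27), the cap helicase, and Eif6 (1.23), which keeps the subunits apart, largest. The second list held 11 genes: elongation factors, genes of like symbols such as Eef1e1 and Eef2k that are not such factors, and nascent-chain proteins. Of these 11 genes, 7 rose and 1, Eef1a2, fell (median 0.34), and Eef1e1 (1.39) came after Eef1a1. Of 28 regulators of ribosomal protein synthesis, 5 rose and 4 fell (median 0.05), a smaller share rising than over all genes. Myc was at 4.74 and 3.43 FPKM in WT sham against 21.5 and 21.4 in WT MI (log2 fold change 2.15, SE 0.16), while Mycn fell (-1.22, SE 0.23). Of 17 genes of the eIF2alpha kinase and ribosome stress pathways, 3 rose and 1 fell (median 0.23), again a smaller share rising than over all genes. These calls were not firm: under the alternatives tried, that of Asns (1.61) was kept in 13 and lost in 5, that of Atf4 (0.51) kept in 10 and lost in 8 with its sign turned in 1, and that of Eif2ak3 (0.51) kept in 5 and lost in 13 with its sign turned in 1. Against WT sham the KO-labelled MI libraries gave 30 of 59 biogenesis factors higher and 0 lower. In that contrast 34.8% of all genes were called higher and 14.3% lower. Of 37 initiation factors 15 were higher and 3 lower, and of the 11 genes of the elongation list 7 and 1. Of 28 regulators 8 were higher and 7 lower, and of 17 stress genes 6 and 1. Of 16 polymerase I genes 7 were higher and 1 lower, and of 14 snoRNA host genes 5 and 1. Against WT MI none of these lists held a called gene.

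Mitochondrial ribosomal proteins, which serve the few mRNAs made in mitochondria, gave other counts than their cytosolic counterparts. Of 78 tested, 1 rose and 20 fell in WT MI by limma (median log2 fold change -0.14), where 27.7% of all genes were called higher and 9.39% lower. In KO-labelled MI against the same sham libraries 1 rose and 41 fell (median -0.34), where 34.8% of all genes were called higher and 14.3% lower. In KO-labelled MI against WT MI 0 were called higher and 1 lower (median -0.165), where 0.816% and 0.587% of all genes were. Mrpl42 was at 491 and 528 FPKM in WT sham against 267 and 311 in WT MI (log2 fold change -0.82, SE 0.10), Mrps9 fell by 0.66 (SE 0.13) on the log2 scale, and Mrpl52 was the 1 that rose (0.63, SE 0.12). Their summed FPKM was 4367 and 4300 in WT sham, 3628 and 3653 after WT MI, and 3210 and 3308 in KO-labelled MI.

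**Figure D4:**
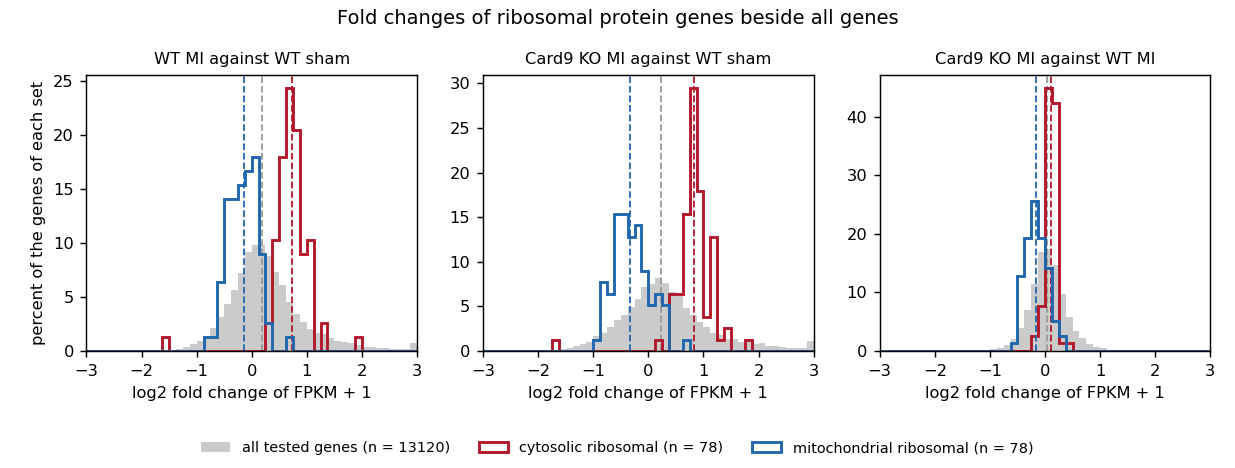
Log2 fold changes of FPKM + 1 of the 78 tested cytosolic (red) and 78 mitochondrial (blue) ribosomal protein genes and of all 13120 tested genes (grey), as percent of each set, in the 3 comparisons. Values beyond the axis are counted in the last bin, and dashed lines are medians: in WT MI against WT sham they stand at 0.72, -0.14 and 0.19.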

How the data were processed

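RNA of mouse heart was extracted with TRIzol, mRNA was enriched on oligo(dT) beads and Illumina libraries were made with a TruSeq RNA kit. The authors mapped the reads to mm9 with BWA and Bowtie2, per their processing notes and methods, and deposited gene-level FPKM for each library, keyed by NCBI gene number. The annotation behind them, and whether counting used strand, is not given in the sources used here. A gene without a value was set to 0. Symbols came from a RefSeq table of GRCm38.p6 for 17390 of 17441 gene numbers, and mm9 positions from GENCODE for 79 of the 81 members.

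The members and gene lists were chosen with earlier results of these data known. Limma 3.58.1 in R 4.3.3 was fitted (eBayes with trend) to log2(FPKM + 1) of all 6 libraries in 1 model without covariates, for genes of at least 1 FPKM in 2 libraries, and adjusted by the Benjamini-Hochberg method. A call has an adjusted p below 0.05. A log2(FPKM + 1) fold change understates changes of low genes. An exact permutation test of 1 gene cannot reach this threshold in groups of 2, so it was left out. Data were also simulated from the mean level of each gene over all 6 libraries (12863 genes tested), with few genes changed in WT MI. The spread and the gene length were assumed, the same for all genes, and not taken from the libraries. In that setting the fit recovered 25 of 65 genes changed 1.5-fold, 46 of 65 changed 2-fold and 61 of 64 changed 4-fold. There were 3 false calls among 12669. The simulation therefore does not measure the error rate in the libraries themselves. Depth was estimated from the spacing of low FPKM values. Only 63.6% to 66.9% of these came within 0.1 of a whole fragment, so no counts were rebuilt.

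Named genes were Card9, paralogs and members of known roles, the 5 largest and 5 smallest changes per comparison, the 5 highest and lowest levels, and the 3 largest called changes of each list. Eef1a2, Rps24, Rpl31, Rpl35, Rpl37, the printed windows and the ribosomal proteins outside the rule were chosen after their values were seen. Some genes that this rule takes are not reported here. A screen with the study's thresholds was written in Python 3.11.15 as an alternative. It is modelled on NOIseq, the method of the study, but is not that software, so its calls may differ.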

Additional observations from a re-analysis of the deposited data

How the results depend on the processing

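Most tested members stayed higher in both infarct groups than in WT sham under each alternative but 2. These were setting values relative to the median of the members, and the screen modelled on that of the study. The number called higher in WT MI was 58 when a ratio of at least 1.5 was asked beside the adjusted p. That number was 61 to 77 under the other alternatives with both libraries of each group compared. In KO-labelled MI these numbers were 66 and 66 to 77. Where 13120 genes were tested, these other fits called 2287 to 4071 of them higher in WT MI and 2843 to 5206 in KO-labelled MI. For the ratio of 1.5 no count over all genes was taken. Rpl3l was called lower in both throughout. With 1 library left out in turn, the members' median log2 fold change was 0.69 to 0.76 in WT MI. In KO-labelled MI that median was 0.77 to 0.90. The screen, which asks for a ratio of at least 2, took 11 members higher in WT MI and 18 in KO-labelled MI. Of all genes listed in either group it took 6.06% and 8.56% as higher. Relative to the median of the members, which by construction removes their shared rise, 3 were called higher and 8 lower in WT MI and 4 and 12 in KO-labelled MI, and the median log2 fold change turned to -0.077 and -0.12 against WT sham and to -0.035 between the infarct groups. Between the infarct groups 1 member, Rpl39, was called higher with 5 FPKM added, with a mean of at least 5 FPKM as the filter and with quantile normalization, and 0 otherwise.

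Members whose rise was smaller than the shift of the members' median level turned negative on the relative scale, in WT MI Rpl36 -0.45, Rps29 -0.42, Rps27l -0.39, Rps15a -0.32, Rplp0 -0.12, Rplp1 -0.0021, Rplp2 -0.30, Rpl5 -0.026, Rpl11 -0.047, Rps6 -0.021, Rpl38 -0.055, Rps25 -0.21, Rps3 -0.041, Rps14 -0.28, Rps15 -0.36, Rps4x -0.10, Rpl7 -0.0025, Rpl7a -0.022, Rpl22 -0.30, Rps27 -0.29, Rps2 -0.32, Rpl24 -0.37, Rps13 -0.39 and Rps24 -0.35. Among other genes Rps3a1 -0.12, Rpl7l1 -0.33, Taf1d -0.028, Tcof1 -0.17, Atf4 -0.29, Eif2ak3 -0.29 and Mrpl52 -0.17 did so, and in KO-labelled MI against WT sham Rpl36 -0.74, Rpl24 -0.56, Rps13 -0.56 and Rps27l -0.53. Rpl36 in KO-labelled MI turned to -0.10 with upper-quartile scaling. Between the infarct groups Rpl24 turned to 0.0102 with quantile normalization, and Rpl3 to 0.0063 with quantile normalization and 0.0023 without the members in the scaling. With 1 library left out the log2 fold change between the infarct groups ranged from -0.40 to 0.092 for Rpl3l, from -0.11 to 0.0075 for Rps27 and from -0.12 to 0.073 for Rpl3. The positive values of Rpl3l and Rps27 came without the first KO-labelled MI library, and those of Rpl3 without the first WT MI (0.037) or the second KO-labelled MI library. The cause was not tested.

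With 1 library left out, limma's adjusted p in WT MI missed the threshold at least once for members that include Rpl22, Rpl24, Rpl36, Rps14, Rps15, Rps24 and Rps29, and in KO-labelled MI for Rpl24 and Rps27l. The lone library of a group was then assumed to vary like the other groups. Replicate numbers did not pair the libraries: deviations from the group means of same-numbered libraries had correlations of 0.002, -0.008 and 0.02 over genes. With the number as a replicate block 75 members were called higher in WT MI and 75 in KO-labelled MI. Over the 13120 genes tested this block gave 3503 and 4419 called higher. Levels at or near 0 kept Rpl10l, Rpl32l and Rpl39l out of the test.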
